A study of Arabidopsis thaliana with 6 samples.

Results

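The cytosolic ribosome of Arabidopsis thaliana translates the messenger RNAs of the nucleus, and each of its proteins is encoded by a small family of near-identical nuclear genes. The genes described here were taken by locus code from a list of proteins of the large and the small subunit, which was drawn up with earlier results of these data known. Of the 54 listed genes, 48 were among the 20777 loci of the deposited table, and the 6 without a row, PGY2, RPS5A, RPS5B, EMB2296, AT1G70600 and AT2G31610, were not analysed here. The series compared Col-0 plants that express the transcription factor gene GRF5 from the 35S promoter, which is active in nearly all tissues (35S::GRF5), with wild-type Col-0 plants. RNA came from the vegetative part of seedlings at growth stage 1.03 and was measured on ATH1 arrays, which read each transcript with short probes. Both groups grew in vitro at 22 °C on MS medium, with a 16 h light and an 8 h dark period. Each group had 3 arrays from samples labelled as biological repeats, the labels speak of 1 overexpressing line, and values are log2 expression values.

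Ribosomal proteins are made in step with each other, since each ribosome takes up a single copy of nearly all of them, and their transcripts are among the most abundant of growing cells. Dividing leaf cells need many new ribosomes, and Arabidopsis mutants in single ribosomal protein genes often have narrow, pointed first leaves with fewer cells. GRF5, a growth-regulating factor, promotes cell proliferation in leaf primordia and makes leaves larger when overexpressed. The comparison asks how the transcripts of the translation machinery stood in such plants.

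GRF5 (AT3G13960) read 11.34, 11.42 and 12.08 in 35S::GRF5 plants, against 4.73, 4.75 and 4.26 in wild type, with a difference of 7.03 log2 units (adjusted p = 2.98e-07 in limma), so all 6 arrays bore out their labels for this gene. Array medians over all loci were 6.41 to 6.43 in 35S::GRF5 and 6.38 to 6.39 in wild type, and over all loci the difference had a median of 0.02. The shoot markers RCA and PSAD-1, 2 of 4 listed, read 13.4 to 14.2, while 5 root markers and 4 seed storage markers had list means of 4.01 to 4.47 in 35S::GRF5 and 4.06 to 4.52 in wild type. Of the 48 ribosomal protein genes, 21 carry a name in the reference table used here, 12 of the large and 9 of the small subunit, and the other 27 are given by locus code. Which probes stand for which locus is not stated, so near-identical copies may share probes, and the value of 1 copy can include signal from another. In tissue RNA, a different share of dividing cells and a different amount of transcript per cell cannot be told apart.

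Most of the ribosomal protein genes had a slightly higher mean in 35S::GRF5 plants than in wild type, but no single gene passed the test, and in the average over the 48 genes the arrays of the groups overlapped. The difference, 35S::GRF5 minus wild type, was positive for 38 of 48 genes (79.2%), beside 56.2% of all loci and 60.8% of the loci in the top 25% of mean value, to which 46 of the 48 belong. Its median over the 48 genes was 0.10 log2 units, a factor of 1.07, beside 0.02 over all loci and 0.04 over that top 25%. The range ran from -0.30 for AT5G39850 to 0.40 for AT3G04920. With each array centred on its median, 36 of 48 were positive and the median was 0.06, beside -0.01 over all loci, where 46.1% were positive. With quantile normalization the median was also 0.06.

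No single gene of the group passed limma after Benjamini-Hochberg adjustment over all loci, neither towards higher nor towards lower values. Over all loci 0.284% were called higher and 0.486% lower at an adjusted p under 0.05. The lowest adjusted p among the 48 was 0.118. At an unadjusted p under 0.05 there were 6 genes towards higher values (12.5%) and 0 towards lower values, beside 9.49% and 5.97% of all loci and 12.1% and 6.45% of the top 25%. By that measure the share of the 48 towards higher values was near that of the loci in the top 25%. The count depended on the fit, the normalization and the arrays used. It was 11 with trend and robust estimation (22.9%, beside 9.22% of all loci and 13.7% of the top 25%) and 10 with array weights (20.8%, beside 9.99% and 12.5%). Without wild type replicate 1 it was 2 (4.17%, beside 6.55% and 7.99%). The share was 8.33% with arrays centred on their medians (beside 6.31% and 7.64%) and with quantile normalization (beside 7.36% and 7.97%). It was also 8.33% without 35S::GRF5 replicate 2 (beside 8.24% and 10.3%) or wild type replicate 3 (beside 7.07% and 8.32%). Leaving out 35S::GRF5 replicate 1, 35S::GRF5 replicate 3 or wild type replicate 2 gave 14.6%, beside 11.7%, 11.7% and 9.86% of the top 25%. The values of the 3 arrays of 35S::GRF5 all exceeded those of wild type for 14 of the 48 genes (29.2%), and all lay below them for 0, beside 13.2% and 8.45% of all loci and 18.7% and 8.74% of the top 25%.

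The precision limits what can be said of a single gene. Over the 48 genes the 95% interval had a median half-width of 0.22 log2 units. For all 48 genes the interval lay within a 2-fold change in either direction, and for 46 it lay within a 1.5-fold change, the exceptions being AT3G04920 on the higher side and AT5G39850 on the lower side. For 7 genes it lay within a 1.2-fold change.

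AT3G04920 had the largest positive difference. It read 10.25, 10.01 and 9.98 in 35S::GRF5 plants, against 9.78, 9.66 and 9.62 in wild type, a difference of 0.40 (95% interval 0.17 to 0.62), or 1.32-fold, with an unadjusted p of 0.00321 and an adjusted p of 0.118 in limma. All 35S::GRF5 arrays lay above all wild-type arrays, and replicate 1 was the highest of them.

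RPS18C (AT4G09800) encodes S18, a protein in the head of the small subunit. It read 11.52, 11.50 and 11.56 in 35S::GRF5 plants, against 11.26, 11.19 and 11.25 in wild type, a difference of 0.30 (0.11 to 0.48), or 1.23-fold (unadjusted p = 0.00494, adjusted p = 0.135 in limma). The 3 arrays of each group lay close together, with SDs of 0.03 and 0.04, and the groups did not overlap. RPS18A (AT1G22780), also known as POINTED FIRST LEAF, encodes the same protein. It read 11.15, 11.46 and 11.39 in 35S::GRF5 plants, against 11.22, 11.27 and 11.24 in wild type, a difference of 0.09 (-0.13 to 0.32, adjusted p = 0.716 in limma). There 35S::GRF5 replicate 1 lay below all wild-type arrays and replicates 2 and 3 above them. Whether the 2 genes differ in their response was not tested.

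AT3G10090 read 9.70, 9.57 and 9.50 in 35S::GRF5 plants, against 9.22, 9.34 and 9.37 in wild type, a difference of 0.28 (unadjusted p = 0.013, adjusted p = 0.193 in limma). AT2G01250 read 11.96, 11.91 and 11.92 in 35S::GRF5 plants, against 11.64, 11.75 and 11.63 in wild type, a difference of 0.25 (unadjusted p = 0.0135, adjusted p = 0.195 in limma). In both genes every 35S::GRF5 array lay above every wild-type array. AT5G02870 read 11.80, 11.82 and 11.66 in 35S::GRF5 plants, against 11.49, 11.58 and 11.51 in wild type, a difference of 0.23 (unadjusted p = 0.0263, adjusted p = 0.247 in limma). RPS15A (AT1G07770), a small subunit gene, read 11.66, 11.64 and 11.58 in 35S::GRF5 plants, against 11.43, 11.48 and 11.38 in wild type, a difference of 0.20 (unadjusted p = 0.0415, adjusted p = 0.3 in limma). These 2 genes also showed no overlap, with 35S::GRF5 replicate 3 the lowest of its group and wild type replicate 2 the highest of its own.

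At the other end stood AT5G39850, with 6.90, 7.49 and 7.32 in 35S::GRF5 plants, against 7.65, 7.37 and 7.59 in wild type, a difference of -0.30 (-0.63 to 0.03, unadjusted p = 0.0735, adjusted p = 0.375 in limma). The groups overlapped, since 35S::GRF5 replicate 2 lay above wild type replicate 2, and 35S::GRF5 replicate 1 was the lowest of the 6 arrays. RPL3A (AT1G43170), whose protein L3 reaches towards the catalytic centre of the large subunit, read 12.57, 12.58 and 12.53 in 35S::GRF5 plants, against 12.59, 12.77 and 12.46 in wild type, a difference of -0.05. RPSAA (AT1G72370), the small subunit protein also called P40, read 11.72, 11.77 and 11.74 in 35S::GRF5 plants, against 11.72, 11.93 and 11.73 in wild type, a difference of -0.05. In both genes wild type replicate 2 was the highest of the 6 arrays, the other 5 overlapped, and without that array the differences were 0.03 and 0.02. AT2G36160 read 10.79, 10.72 and 11.05 in 35S::GRF5 plants, against 10.93, 10.91 and 10.85 in wild type, a difference of -0.04, with 35S::GRF5 replicate 3 highest and replicates 1 and 2 lowest.

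**Figure D1:**
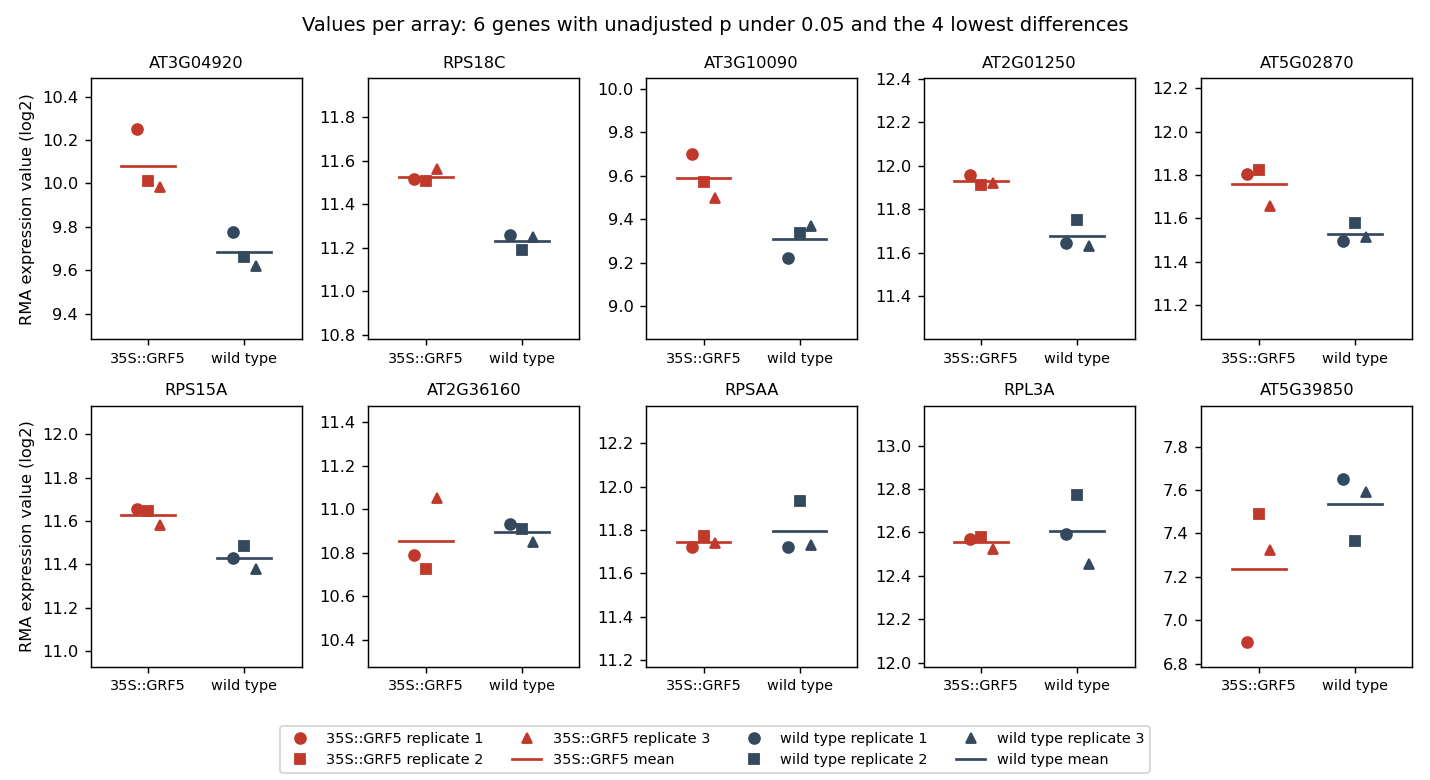
Expression values on the log2 RMA scale in each array (vertical axis, a span of 1.2 log2 units in every panel) for 10 ribosomal protein genes, with 35S::GRF5 arrays in red on the left, wild-type arrays in dark blue on the right, a marker shape per replicate number and a bar at the group mean. In the 6 genes with the lowest p, from AT3G04920 (difference 0.40) to RPS15A (0.20), the groups do not overlap, and in the 4 genes with the lowest differences, from AT2G36160 (-0.04) to AT5G39850 (-0.30), they do.

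Several ribosomal protein genes are known from leaf and growth mutants, and 14 of the 17 such genes listed were measured. Their differences were positive in 12 of 14, with a median of 0.12 and a range from -0.01 to 0.23, and 0 passed limma over all loci. The 14 genes together averaged 11.28 ± 0.01 in 35S::GRF5 and 11.17 ± 0.09 in wild type (SD over 3 arrays). Relative to the median of each array they stood at 4.86, 4.86 and 4.85 in 35S::GRF5 replicates 1 to 3, against 4.76, 4.87 and 4.71 in wild type replicates 1 to 3. On that scale wild type replicate 2 was the highest of the 6 arrays, and for 13 of the 14 genes it was the highest wild-type array. AT5G02870, described above, had the largest difference among them and was the 1 with an unadjusted p under 0.05 (a share of 7.14%, with 9.49% of all loci towards higher values). The 35S::GRF5 arrays all lay above the wild-type arrays for 5 of the 14, AT5G02870, RPL5B, RPL10A, RPS13A and RPL24B (35.7%, beside 13.2% of all loci and 18.7% of the top 25%).

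RPL5A and RPL5B encode L5, which binds a small ribosomal RNA and enters the large subunit with it. Their mutants were isolated as oligocellula 5 and 7, with fewer leaf cells, and RPL5A is also PIGGYBACK3, which enhances defects of leaf polarity. RPL5B (AT5G39740) read 11.02, 11.23 and 11.05 in 35S::GRF5 plants, against 10.86, 10.98 and 10.88 in wild type, a difference of 0.19 (-0.02 to 0.40, adjusted p = 0.363 in limma). RPL5A (AT3G25520) read 11.21, 11.02 and 11.13 in 35S::GRF5 plants, against 11.00, 11.19 and 10.94 in wild type, a difference of 0.08 (-0.15 to 0.30, adjusted p = 0.765 in limma). RPL5B showed no overlap, while for RPL5A wild type replicate 2 lay above 2 of the 35S::GRF5 arrays. PGY1 (AT2G27530), PIGGYBACK1, encodes L10a of the large subunit and read 10.61, 10.96 and 10.84 in 35S::GRF5 plants, against 10.73, 10.89 and 10.74 in wild type. Its difference was 0.02 (-0.22 to 0.26), with 35S::GRF5 replicate 1 the lowest and replicate 2 the highest of the 6 arrays, and it was -0.02 with arrays centred on their medians.

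RPL10A (AT1G14320) encodes L10, a late-joining protein of the large subunit, and is also SAC52, in which a dominant allele restores stem growth in a thermospermine-deficient mutant. It read 12.72, 12.66 and 12.60 in 35S::GRF5 plants, against 12.53, 12.59 and 12.37 in wild type, a difference of 0.16 (-0.05 to 0.37, adjusted p = 0.451 in limma). RPL24B (AT3G53020), SHORT VALVE1, is needed for efficient re-initiation of translation on auxin response factor transcripts and read 11.37, 11.34 and 11.34 in 35S::GRF5 plants, against 11.22, 11.33 and 11.15 in wild type, a difference of 0.12 (-0.08 to 0.31, adjusted p = 0.564 in limma). In both genes the lowest 35S::GRF5 array stood only just above wild type replicate 2. RPL23AB (AT3G55280), whose protein L23a lies near the exit of the peptide tunnel, read 9.41, 9.51 and 9.39 in 35S::GRF5 plants, against 9.09, 9.39 and 9.26 in wild type, a difference of 0.19 (-0.04 to 0.41, adjusted p = 0.41 in limma), and overlapped at that same wild-type array.

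RPS13A (AT4G00100), POINTED FIRST LEAF 2, encodes S13 of the small subunit. It read 11.87, 11.72 and 11.73 in 35S::GRF5 plants, against 11.59, 11.60 and 11.66 in wild type, a difference of 0.16 (-0.04 to 0.35, adjusted p = 0.423 in limma), with no overlap between the groups. RPS6A and RPS6B encode S6, the small subunit protein phosphorylated by the S6 kinases of the TOR growth pathway. RPS6A (AT4G31700) read 11.12, 11.03 and 11.25 in 35S::GRF5 plants, against 11.11, 11.16 and 10.77 in wild type, a difference of 0.11 (-0.15 to 0.38). RPS6B (AT5G10360) read 11.12, 11.02 and 11.18 in 35S::GRF5 plants, against 11.01, 11.14 and 10.96 in wild type, a difference of 0.07 (-0.13 to 0.28). Both S6 genes were lowest in wild type replicate 3, and without that array the RPS6A difference was -0.01.

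The remaining 3 genes of this kind carry no name in the reference. AT3G53890 read 11.88, 11.64 and 11.49 in 35S::GRF5 plants, against 11.40, 11.55 and 11.41 in wild type, a difference of 0.21 (-0.04 to 0.47, adjusted p = 0.403 in limma), with 35S::GRF5 replicate 1 the highest of the 6 arrays. AT3G09630 read 11.10, 11.32 and 11.37 in 35S::GRF5 plants, against 11.38, 11.43 and 11.03 in wild type, and AT2G19730 read 11.48, 11.30 and 11.58 in 35S::GRF5 plants, against 11.46, 11.56 and 11.35 in wild type. Their differences of -0.01 and -0.0018 changed sign when single arrays were left out, and the groups overlapped in all 3 genes.

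Differences were positive for most of the named genes of either subunit. Of 12 large subunit genes 11 had a positive difference, with a median of 0.13, and of 9 small subunit genes 7 did, with a median of 0.11. A difference between the subunits was not tested. The large subunit genes not yet described were BBC1 (AT3G49010), which encodes L13, at a difference of 0.20, EMB2386 (AT1G02780), which encodes L19 and is needed for embryo development, at 0.15, RPL24A (AT2G36620) at 0.14, RPL18 (AT3G05590) at 0.10 and RPL10B (AT1G26910) at 0.06. For BBC1 the groups did not overlap, and for the other 4 they did. Among small subunit genes, RPS10B (AT5G41520) differed by -0.03, with overlap. Of the 27 genes without a name 20 had a positive difference, with a median of 0.07. Beside those given above, AT4G27090 (0.19), AT2G37190 (0.19) and AT1G01100 (0.17) had the highest differences of these, and AT4G10450 (-0.04), AT1G34030 (-0.03) and AT3G11250 (-0.02) the lowest.

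**Figure D2:**
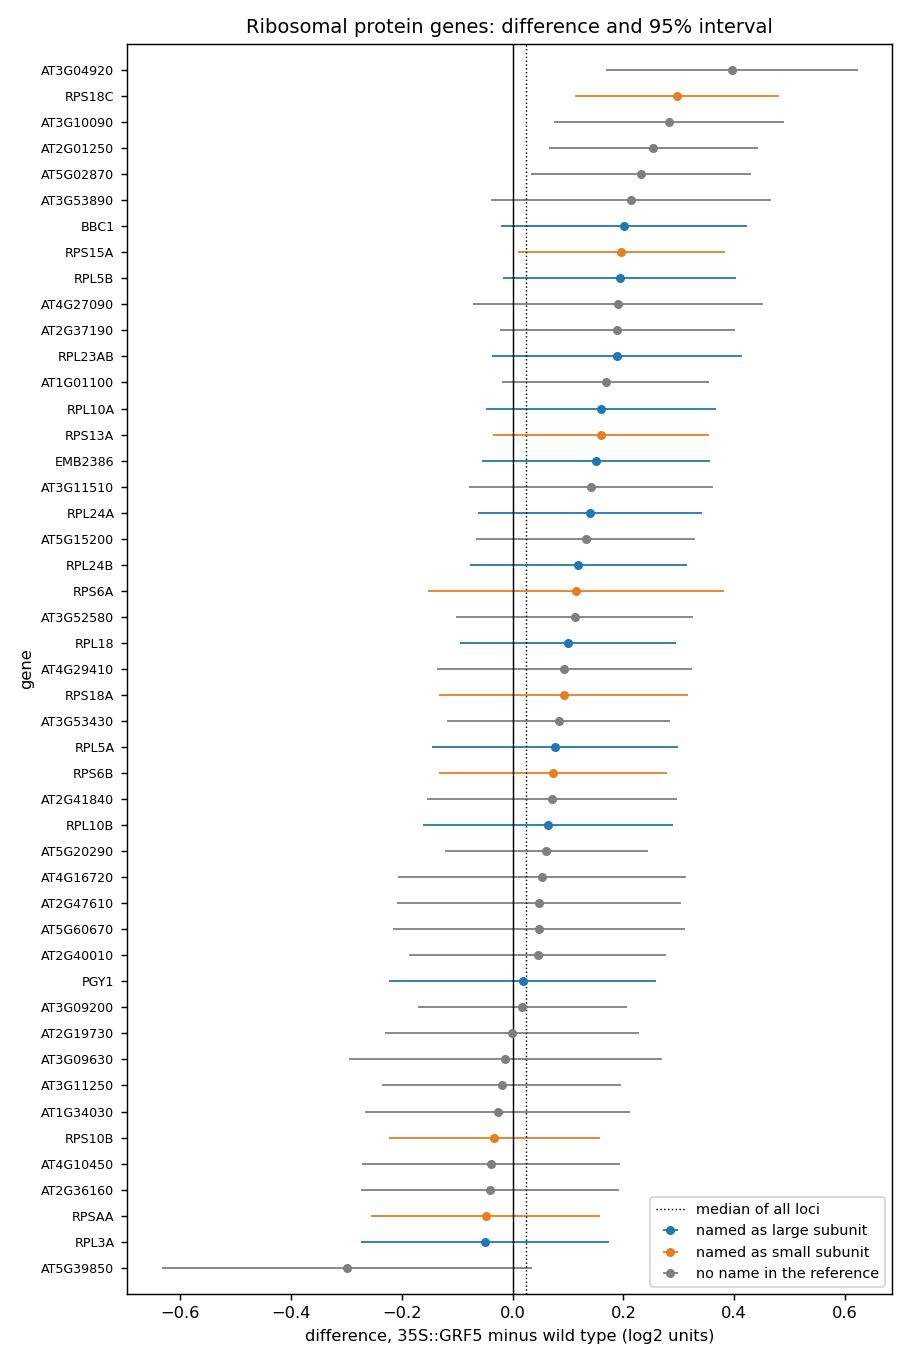
Difference between the groups, 35S::GRF5 minus wild type in log2 units (horizontal axis), with the 95% interval from limma for 47 of the 48 ribosomal protein genes, sorted by difference and coloured by subunit where the reference names the gene. The solid line marks 0 and the dotted line the median of all loci, 0.02. The intervals of 6 genes lie above 0, those of 0 genes below it, and those of the remaining genes span it.

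Among the genes with a name in the reference, pairs for the same protein could be set side by side for 5 proteins. The differences were 0.08 for RPL5A and 0.19 for RPL5B, 0.16 for RPL10A and 0.06 for RPL10B, and 0.14 for RPL24A and 0.12 for RPL24B. They were 0.11 for RPS6A and 0.07 for RPS6B, and 0.09 for RPS18A and 0.30 for RPS18C. All 10 were positive. Copies among the genes given by locus code only were not paired, so these pairs do not stand for all copies in the group. Over the 6 arrays the pair of L24 genes followed each other with r = 0.91 and the pair of S6 genes with r = 0.87, while r was 0.42 for the S18 pair, 0.23 for the L5 pair and 0.11 for the L10 pair. These values are descriptions over 6 arrays that include the group difference, and shared probes could raise them.

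Among the wild-type arrays most of the genes varied together, while in 35S::GRF5 no array was the highest or the lowest for most of them. The 48 genes averaged 11.00, 11.05 and 11.05 in 35S::GRF5 replicates 1 to 3, against 10.92, 11.01 and 10.87 in wild type replicates 1 to 3. Wild type replicate 2 lay just above 35S::GRF5 replicate 1, so the averages of the groups overlapped. The group means were 11.03 ± 0.03 in 35S::GRF5 and 10.94 ± 0.07 in wild type (SD, n = 3 each). Relative to the median of each array the 48 genes stood at 4.586, 4.626 and 4.623 in 35S::GRF5 replicates 1 to 3. In wild type replicates 1 to 3 they stood at 4.534, 4.625 and 4.494. On that scale wild type replicate 2 lay above 35S::GRF5 replicates 1 and 3. Wild type replicate 2 was the highest of the wild-type arrays for 39 of 48 genes and the lowest for 2, and wild type replicate 3 was the lowest for 30. In 35S::GRF5, replicates 1 to 3 were the highest array for 17, 18 and 13 genes and the lowest for 19, 16 and 13. In the average over the 48 genes replicate 1 was the lowest of the 3. AT3G53890, for example, was highest in 35S::GRF5 replicate 1, and AT4G27090 was lowest there, with 11.70, 12.00 and 12.15 in 35S::GRF5 replicates 1 to 3, against 11.76, 11.80 and 11.71 in wild type.

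Without wild type replicate 2 the median difference of the 48 genes was 0.14 and 44 were positive, and without wild type replicate 3 the values were 0.07 and 33. After the group means were subtracted, the median correlation between 2 of the 48 genes over the arrays of both groups was 0.30. Of the 1128 correlations 70.0% were positive. For loci in the top 25% of mean value the values were 0.01 and 50.8%. The groups were not separated in these correlations. The 6 markers of dividing cells averaged 7.03, 7.16 and 7.25 in 35S::GRF5 replicates 1 to 3, against 6.96, 7.20 and 6.93 in wild type replicates 1 to 3. Among the wild-type arrays they too were highest in replicate 2 and lowest in replicate 3. The averages of other cytosolic and plastid ribosomal protein genes and of ribosome biogenesis genes, described below, had the same order. Those of translation elongation factor and TOR pathway genes did not. Of the 6 markers of dividing cells 1 had an unadjusted p under 0.05, the cytokinesis kinesin gene HINKEL. Its difference was 0.34 (adjusted p = 0.269 in limma), and its groups overlapped. The others differed by 0.17 (CYCB1;1), 0.16 (CDKB2;1), 0.13 (KNOLLE), 0.07 (CYCA1;1) and -0.16 (AUR1), all with overlap. The 2 meristem markers averaged 4.97 to 5.03 in 35S::GRF5 and 5.06 to 5.32 in wild type. Of them the homeobox gene KNAT1 differed by -0.26 (unadjusted p = 0.0253, adjusted p = 0.244 in limma). KNAT1 read low, with means of 4.29 in 35S::GRF5 and 4.55 in wild type, within the range of mean values of the root markers. The other, STM, differed by -0.11, with overlap. The part of dividing or meristem cells in the level of the ribosomal protein genes was not tested.

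**Figure D3:**
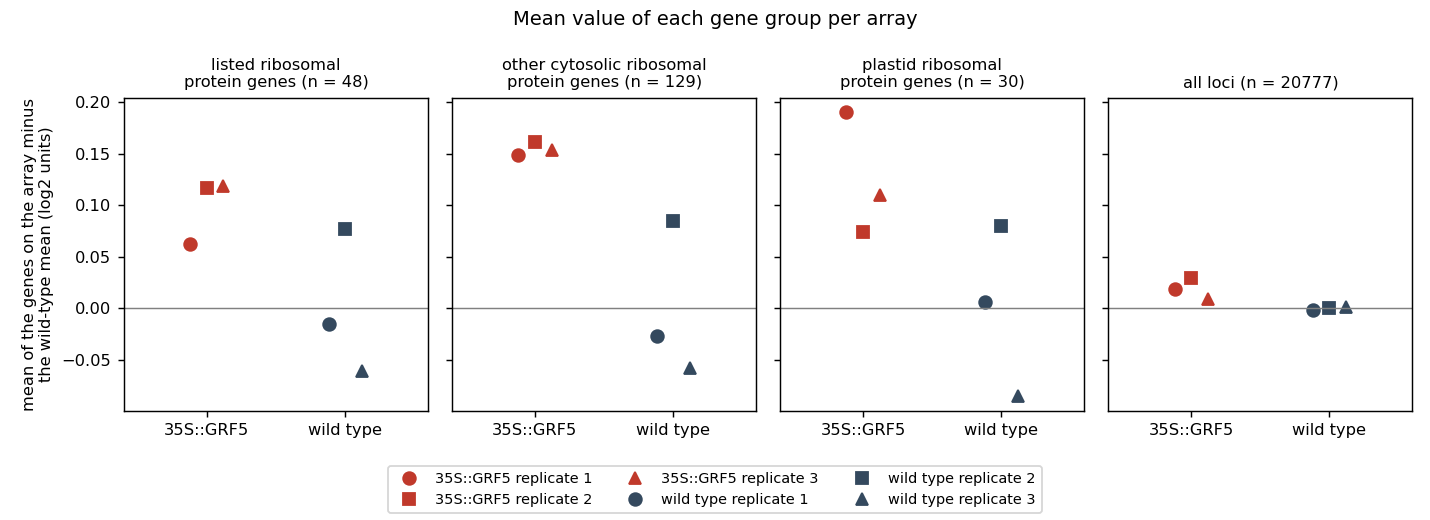
Mean log2 value of each gene group per array, as the distance from the mean of the wild-type arrays (vertical axis, log2 units), with 35S::GRF5 arrays in red on the left, wild-type arrays in dark blue on the right and a marker shape per replicate number. For the 48 listed ribosomal protein genes wild type replicate 2 reaches above 35S::GRF5 replicate 1, for 129 other cytosolic ribosomal protein genes the groups do not overlap, and all loci lie close to 0.

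Other genes of the translation machinery were read from lists of locus codes. Of 162 other cytosolic ribosomal protein genes 129 were in the table, and 110 of these (85.3%) had a positive difference, with a median of 0.17 and a range from -0.21 to 0.50. By limma over all loci 0 of the 129 passed. At an unadjusted p under 0.05 there were 42 towards higher values (32.6%) and 0 towards lower values. The shares were 9.49% and 5.97% for all loci, and 12.1% and 6.45% for the top 25% of mean value. Without wild type replicate 1 the count of these 129 genes towards higher values was 23, and without wild type replicate 3 it was 24. In those fits the shares towards higher values were 6.55% and 7.07% of all loci, and 7.99% and 8.32% of the top 25%. The mean of the 129 genes was 9.87, 9.88 and 9.87 in 35S::GRF5 replicates 1 to 3, against 9.69, 9.80 and 9.66 in wild type replicates 1 to 3. The groups did not overlap in this mean, and wild type replicate 2 was again the highest wild-type array.

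The 2 largest differences of that list were those of AT5G28060 and AT2G19740, and neither has a name in the reference. AT5G28060 read 10.55, 10.66 and 10.64 in 35S::GRF5 plants, against 10.15, 10.26 and 9.94 in wild type, a difference of 0.50 (adjusted p = 0.0643 in limma). AT2G19740 read 9.62, 9.40 and 9.42 in 35S::GRF5 plants, against 8.91, 9.09 and 9.13 in wild type, a difference of 0.44 (adjusted p = 0.0905 in limma). Both were higher in every 35S::GRF5 array than in any wild-type array. Among genes with a mean log2 value of 10 or more, a limit set after the values were seen, the median difference was 0.11 for 39 of the 48 genes and 0.15 for 79 of the 129 others. A difference between the 2 lists was not tested.

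**Figure D4:**
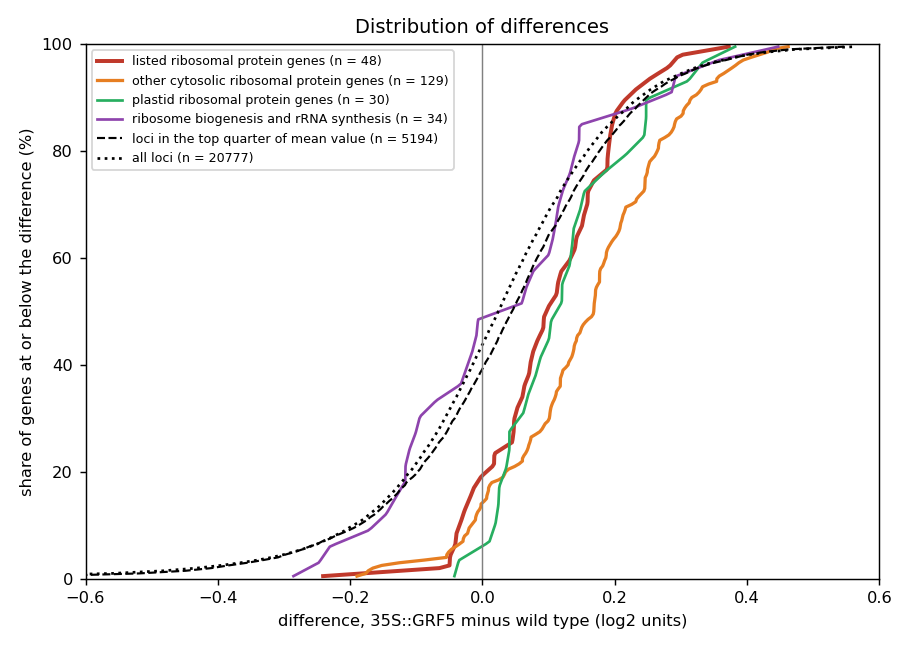
Cumulative share of genes in percent (vertical axis) at or below a given difference, 35S::GRF5 minus wild type in log2 units (horizontal axis), for the 48 listed ribosomal protein genes, 3 other lists, the loci in the top 25% of mean value and all loci. The curve of the 48 genes crosses the middle at 0.10 and that of the 129 other cytosolic ribosomal protein genes at 0.17, right of all loci at 0.02, and that of the 34 ribosome biogenesis genes at 0.03.

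Nuclear genes for proteins of the plastid ribosome, which translates the transcripts of the chloroplast, had mostly positive differences. Of 30 measured 28 had a positive difference, with a median of 0.11, and 0 passed limma over all loci, with 5 at an unadjusted p under 0.05 towards higher values (16.7%, beside 9.49% of all loci and 12.1% of the top 25%). The median was 0.07 without wild type replicate 3 and also 0.07 with arrays centred on their medians. AT4G17560 differed by 0.39 and PRPL11 (AT1G32990), of the large subunit of the plastid ribosome, by 0.33 (adjusted p = 0.159 and 0.11 in limma). The list averaged 12.22, 12.10 and 12.14 in 35S::GRF5 replicates 1 to 3, against 12.03, 12.11 and 11.94 in wild type replicates 1 to 3, so wild type replicate 2 overlapped with 35S::GRF5 replicate 2. Of the 14 translation elongation factor genes listed only 6 were measured, so the list does not stand for the family. Of these 6 genes 4 had a positive difference, the median of the 6 was 0.13, and 0 passed limma over all loci. At an unadjusted p under 0.05 there were 2, AT5G12110 at 0.33 and AT5G19510 at 0.32, both towards higher values (33.3% of the 6, beside 9.49% of all loci; adjusted p = 0.182 and 0.13 in limma).

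Genes for the assembly of ribosomes did not lie to one side. Of 34 genes for ribosome biogenesis and ribosomal RNA synthesis 17 had a positive and 17 a negative difference, with a median of 0.03, and 0 passed limma over all loci. The median was -0.01 with arrays centred on their medians and -0.02 without 35S::GRF5 replicate 2. The list averaged 7.67, 7.86 and 7.83 in 35S::GRF5 replicates 1 to 3, against 7.77, 7.81 and 7.69 in wild type replicates 1 to 3. For 23 of the 34 genes 35S::GRF5 replicate 1 was the lowest of its group. It lay above the wild-type mean for 10 genes, beside 23 and 25 for replicates 2 and 3, so the even split leaned on that array. At an unadjusted p under 0.05 there were 5 towards higher values (14.7%) and 2 towards lower values (5.88%), beside 9.49% and 5.97% of all loci. The largest differences were those of DIM1A (AT2G47420), a ribosomal RNA dimethyltransferase, at 0.46, and NRPA1 (AT3G57660), the largest subunit of the polymerase that transcribes ribosomal RNA, at 0.36 (adjusted p = 0.135 and 0.151 in limma). DIM1A read 8.25, 8.08 and 7.72 in 35S::GRF5 plants, against 7.52, 7.56 and 7.58 in wild type, and NRPA1 read 6.30, 6.44 and 6.57 in 35S::GRF5 plants, against 5.95, 6.16 and 6.13 in wild type. Neither overlapped between the groups.

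Of 7 measured genes of the TOR pathway and regulators of ribosomal protein genes 3 had a positive and 4 a negative difference, with a median of -0.05, and 0 passed limma over all loci or had an unadjusted p under 0.05. That median was -0.15 without 35S::GRF5 replicate 2, and positive without 35S::GRF5 replicate 1 (0.04) or wild type replicate 1 (0.00063). It was 0.09 over the 5 of these genes that lie above the median of mean value. The S6 kinase gene S6K1 (AT3G08730, symbol PK1) read 7.70, 8.04 and 8.26 in 35S::GRF5 plants, against 8.53, 8.36 and 8.09 in wild type, a difference of -0.33 (adjusted p = 0.347 in limma). TCP20 (AT3G27010), a transcription factor that binds elements in ribosomal protein gene promoters, read 4.83, 5.23 and 5.08 in 35S::GRF5 plants, against 5.35, 5.33 and 5.15 in wild type, a difference of -0.23 (adjusted p = 0.375 in limma). In both genes 35S::GRF5 replicate 1 had the lowest of the 6 values and wild type replicate 1 the highest, and the groups overlapped.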

How the data were processed

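The authors deposited log2 expression values. Per the submitters' processing notes these were made with RMA (version not stated), a method that corrects background, sets the distribution of probe values equal between arrays and combines the probes of a transcript. The table had 20777 loci, 6 arrays, 0 missing values and 0 identical rows. The probe map, and which arrays were normalised together, are not stated in the sources used here. Names came from a TAIR10.1 gene table, which held 20508 of the loci.

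35S::GRF5 was compared with wild type with the lmFit and eBayes functions of limma 3.58.1 (R 4.3.3), two-sided, over all loci. Benjamini-Hochberg adjustment ran over 20777 loci, with a threshold of 0.05 and no filter. The fit was tested on simulated data with independent loci and planted differences larger than any of the 48 genes showed. That test does not show how the fit treats smaller differences or genes that vary together. The labels name no batch, and the number of arrays limits the precision. Medians and counts over lists are descriptions without a test.

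The members and lists were chosen with earlier results of these data known. Genes given in full had an unadjusted p under 0.05, the 4 highest or 4 lowest differences, or a place on a list of genes known from growth mutants. Of the other lists the 2 largest differences were named. AT3G18740 was left out of a list because the reference gives it a kinase name. The values of 1 small subunit gene are not reported here on their own. Planned comparisons of protein and promoter sequences were not run, as sequences were not used here. Equal replicate numbers did not deviate together (r = -0.05, 0.06 and -0.11 over all loci), so they were not taken as pairs. Alternatives were array centring, quantile normalization, filters on low values, other variance models, the replicate block, a threshold of 0.1 and leaving out each array.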

Additional observations from a re-analysis of the deposited data

How the results depend on the processing

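Under all 15 alternatives 0 of the 48 ribosomal protein genes were called higher and 0 lower. At an adjusted p under 0.1 there were 0 in the fit reported above, and 2, AT3G04920 and RPS18C, both with trend and robust estimation (adjusted p = 0.069 and 0.073 in limma) and over loci above the median of mean value (0.088 and 0.096). The median of their differences stayed positive, from 0.06 with quantile normalization to 0.14 without wild type replicate 2, and 33 to 44 had a positive difference. With the replicate block, 38 were positive and the median was 0.10. In that fit 5 had an unadjusted p under 0.05 towards higher values (10.4%, beside 8.61% of all loci and 10.2% of the top 25%). That share was near that of the loci in the top 25%. Over all loci 160 were called, 252 with trend and robust estimation, 294 with array weights, 0 with each gene's own variance (1640 towards higher values at an unadjusted p under 0.05), 114 with the replicate block, and 17 to 186 when 1 array was left out. Of the 129 other cytosolic ribosomal protein genes 2 were called with array weights, 2 with trend and robust estimation and 1 over loci above the median of mean value. Of the 48 genes 1 had an unadjusted p under 0.05 towards lower values with arrays centred and with quantile normalization. The count was also 1 without 35S::GRF5 replicate 2 or wild type replicate 2. Shares of all loci are not given here for that count or for the adjusted p under 0.1, so neither has a background beside it. Of the 23 genes given in full 16 kept their direction throughout. When 1 array was left out, the differences ran from -0.064 to 0.074 for AT2G19730, -0.14 to 0.025 for AT2G36160, -0.14 to 0.068 for AT3G09630, -0.060 to 0.11 for PGY1, -0.13 to 0.032 for RPL3A, -0.0071 to 0.19 for RPS6A and -0.087 to 0.020 for RPSAA. PGY1 stood at -0.020 with arrays centred and -0.019 with quantile normalization, and AT2G19730 at 0.0023 with array weights. The cause of these changes was not tested. A fit with 1 array fewer has less precision, and 3 arrays per group cannot settle differences of the size seen here for single genes.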
